A study of Apostichopus japonicus with 9 samples.

Results

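The gene models described here are those of the sea cucumber respiratory tree that lay lower at both low oxygen levels than in the control. Apostichopus japonicus were kept for 3 days at a dissolved oxygen of about 2 mg/L (DO2, which the submitters call hypoxia), about 4 mg/L (DO4) or about 8 mg/L (DO8, the control). Oxygen in the DO2 and DO4 water was lowered by bubbling nitrogen. Poly(A) RNA was sequenced from 3 libraries per group, each made from the pooled RNA of 3 individuals. The labels used here give no tank, batch, age or source of the animals, so the p-values measure only the spread between pools within a group, and an effect of oxygen cannot be told apart from one of tank or batch. In bulk tissue, fewer cells of a type and less RNA per cell cannot be told apart either.

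Members were chosen by their levels in all 9 libraries. A model was taken when all 6 DO2 and DO4 libraries lay below the lowest DO8 library and the DO2 and DO4 means were each at most 0.5 of the DO8 mean. Its mean over the 9 libraries also had to reach 5 CPM, and its DO8 mean had to stay below 1000 CPM. CPM are counts relative to the library total after scaling with TMM factors, which correct for a few models taking a large share of a library. The rule found 164 members among 13933 models tested, out of 27214 listed in at least 1 library. They made up 1.18% of the models tested and 1.49% of the 10987 that met both level conditions, called the level set below. The opposite rule, with all 6 low-oxygen libraries above every DO8 library, both means at least 2 times the DO8 mean and no upper limit on the level, found 100 models. Since the rule uses the DO2, DO4 and DO8 values, all differences from DO8 given below are descriptions and carry no test.

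The respiratory tree is a pair of thin-walled, branched tubes that arise from the cloaca of a sea cucumber. The animal pumps sea water in and out of it through the anus, and oxygen passes across its wall into the body cavity. Animals short of oxygen commonly change which genes they transcribe, in part through hypoxia-inducible transcription factors, and many marine invertebrates lower their energy use. Which functions the 164 members have could not be read from the data: the tables name each model by a scaffold and a running number, and none of them paired with a RefSeq gene (0 matches to 30661 genes). For the same reason no sequence is shown, and neither the tissue nor any gene group could be checked against known markers.

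Depth differed between libraries, with total expected counts from 1536327 to 4348873 per library. The limit that a count of 0 allows, for counting error only, lay between 0.701 CPM in DO4 library 3 and 2.55 CPM in DO4 library 1. DO2 library 3 stood apart in composition, with 52.7% of its counts in 10 models against 12.9% to 19.1% in the other 8 libraries, and had a TMM factor of 0.458 against 0.771 to 1.271. Without DO2 library 3 the rule found 232 models, 151 of the 164 members among them. Such a rise was not particular to this library. The rule found 210 models without DO2 library 1, and more than 232 without DO8 library 1 or without DO8 library 3. Fewer libraries make the rule easier to meet, and the filter and scaling were run again, which without DO2 library 3 left 14976 models tested. The part of each in the count was not tested.

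As a group the members were a minor part of the RNA. They took 0.361%, 0.358% and 0.196% of the counts of DO2 libraries 1 to 3 and 0.294%, 0.452% and 0.282% in DO4. In DO8 they took 1.25%, 1.59% and 1.63%. After TMM scaling the members summed to 3280, 3452 and 4312 CPM in DO2, 3839, 3613 and 2261 CPM in DO4, and 11721, 13123 and 14355 CPM in DO8. DO2 library 3, the lowest by share, was then the highest of the low-oxygen libraries. Of all models tested, the 1000 with the highest DO8 mean included 30 members. A DO8 mean of at least 100 CPM was found for 34 members, of 20 to 100 CPM for 84 and of less than 20 CPM for 46, and the range was 8.32 to 837 CPM. The median member had a mean of 9.56 CPM in DO2, 8.28 CPM in DO4 and 33.6 CPM in DO8.

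The DO2 mean was a median 3.16-fold below the DO8 mean, at least 4-fold below it for 55 members and at least 10-fold below it for 15. The DO4 mean was a median 3.51-fold below the same DO8 mean, at least 4-fold for 70 members and at least 10-fold for 22. Taking the 6 low-oxygen libraries together, the members lay 2.08-fold to 70.9-fold below DO8. On the fitted log2 scale the median was -1.65 for DO2 against DO8, where all models tested had 0.04, and -1.8 for DO4 against DO8, where all models had 0.05. Both comparisons use the same DO8 libraries.

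The rule placed every member below all DO8 libraries in each low-oxygen library, so only the size of the difference could vary between these libraries. The median log2 ratio of a member to its DO8 mean (with 0.5 CPM added to both) was -1.86, -1.97 and -1.54 in DO2 libraries 1 to 3 and -1.83, -1.83 and -2.17 in DO4. The DO8 libraries had -0.11, -0.03 and 0.05. Over all models tested the same medians lay between -0.19 and -0.01. DO4 library 3 was the lowest of the 9 libraries for 40 members (24.4%, against 14.6% of the level set) and DO4 library 1 for 32 (19.5%, against 17.7%). DO2 libraries 1 to 3 were the lowest for 26, 19 and 21 members and DO4 library 2 for 15. Since no DO8 library can be the lowest of a member, the low-oxygen libraries share more of these places than in the level set. No DO2 or DO4 group was wholly without counts for any member, but 25 members had a count of 0 in at least 1 low-oxygen library.

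**Figure D1:**
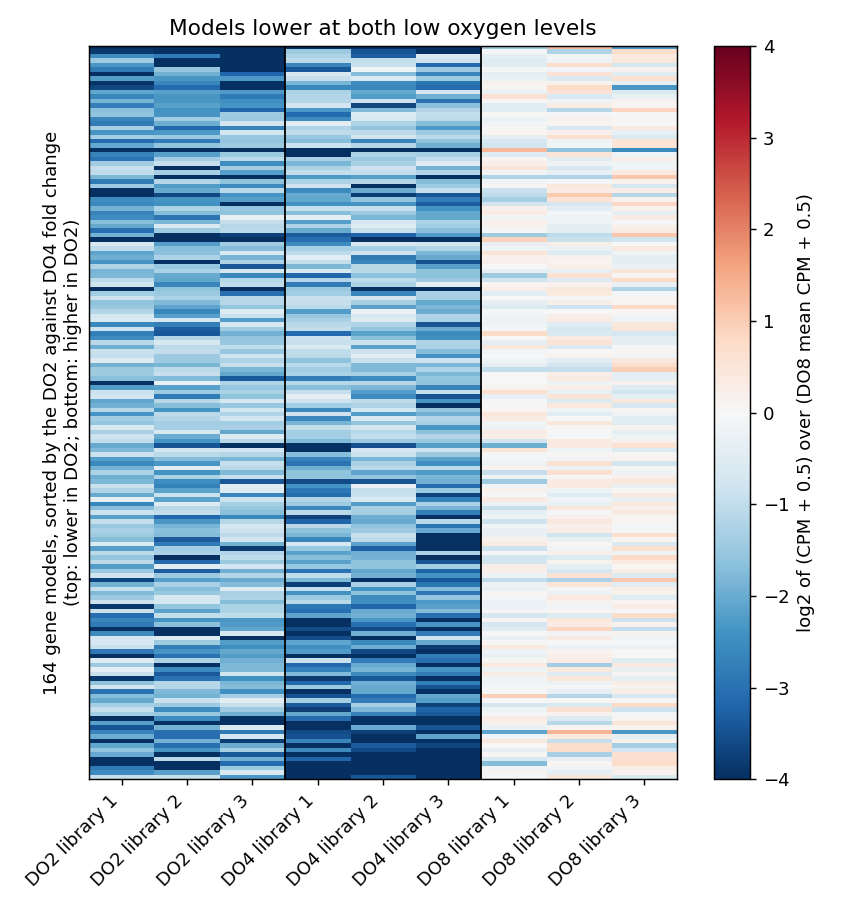
Level of each of the 164 members in each library, as the log2 of CPM + 0.5 over the DO8 mean CPM + 0.5 (colour, blue for below the DO8 mean). Rows are models sorted by the fitted DO2 against DO4 fold change and columns are libraries in the order DO2, DO4, DO8; the library medians are -1.97 to -1.54 in DO2, -2.17 to -1.83 in DO4 and -0.11 to 0.05 in DO8.

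The most abundant members in DO8 differed in how far and how evenly they dropped. Model evm.model.scaffold2915.1 had 9.41, 219 and 93.1 CPM in the DO2 libraries, 546, 254 and 133 CPM in DO4, and 645, 1253 and 612 CPM in DO8. Its DO4 library 1 lay close below the lowest control, and DO2 library 1 far below all others. Evm.model.scaffold1505.14 had 176, 89.6 and 135 CPM in DO2, 60.4, 206 and 31.1 CPM in DO4, and 677, 894 and 831 CPM in DO8. The lowest control was 3.28 times the highest low-oxygen library, so that the groups were well apart, with means 6-fold (DO2) and 8.07-fold (DO4) below DO8.

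For evm.model.scaffold1076.13 the libraries held 85.0, 75.7 and 322 CPM in DO2, 235, 221 and 46.7 CPM in DO4, and 458, 379 and 692 CPM in DO8. Model evm.model.scaffold357.43 had 202, 57.1 and 78.9 CPM in DO2, 218, 169 and 103 CPM in DO4, and 526, 328 and 667 CPM in DO8. Both had low-oxygen libraries that differed several-fold among themselves, and both groups overlapped each other widely. In evm.model.scaffold731.16 this was more marked: 4.7, 198 and 110 CPM in DO2, 45.1, 16.5 and 0.93 CPM in DO4, and 271, 331 and 650 CPM in DO8. DO4 library 3 was near the limit of counting for this model, at a level that DO2 library 2 exceeded by more than 2 orders of magnitude.

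Evm.model.scaffold1318.6 had 43.9, 189 and 182 CPM in DO2, 84.2, 96.9 and 44.6 CPM in DO4, and 232, 258 and 612 CPM in DO8. Its DO8 mean rested to 55.5% on DO8 library 3, and without that library the low-oxygen mean was 2.3-fold below DO8 in place of 3.45-fold. Evm.model.scaffold830.6 had 62.1, 84.4 and 96.1 CPM in DO2, 145, 115 and 67.0 CPM in DO4, and 153, 244 and 384 CPM in DO8. Its low-oxygen libraries were more even, spanning 2.33-fold against 4.3-fold for evm.model.scaffold1318.6. The DO8 libraries spanned 2.51-fold against 2.63-fold. Without DO8 library 3 the low-oxygen mean of evm.model.scaffold830.6 was 2.09-fold below DO8 in place of 2.74-fold. Evm.model.scaffold841.8 had 141, 129 and 80.4 CPM in DO2, 123, 101 and 38.3 CPM in DO4, and 202, 243 and 328 CPM in DO8, where the libraries spanned 1.63-fold. The other 2 of the 10 most abundant members, evm.model.scaffold412.11 and evm.model.scaffold317.7, are described with the consecutively numbered members and with the comparison of DO2 and DO4.

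**Figure D2:**
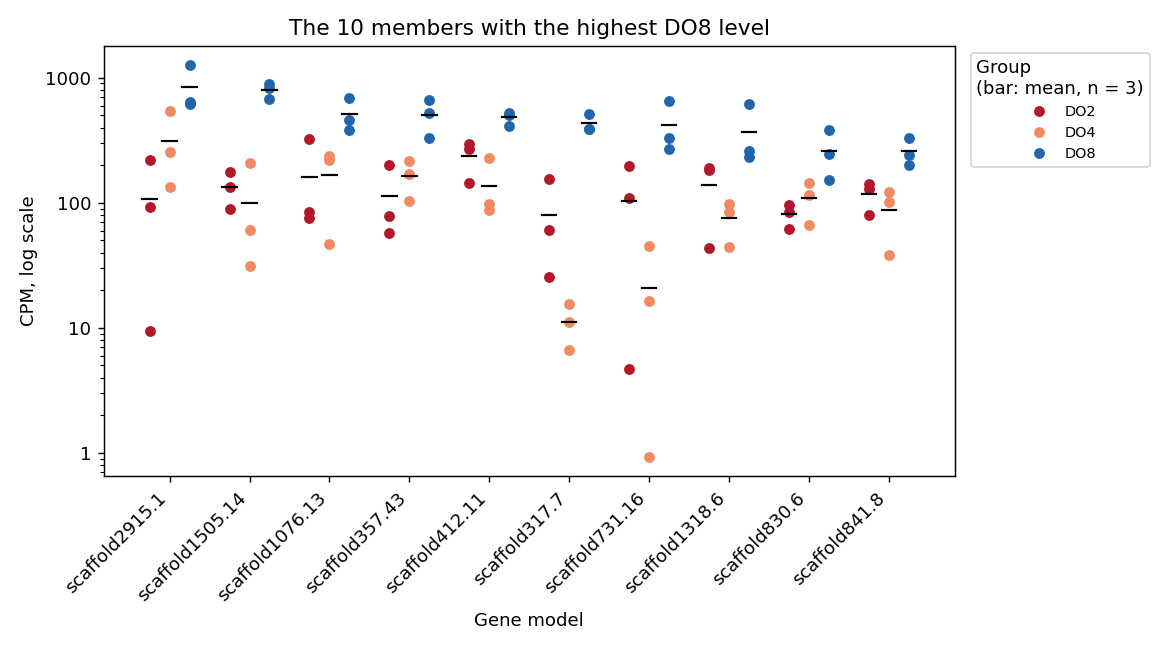
CPM (log scale) of the 10 members with the highest DO8 mean, with 1 point per library, a bar for the mean of each group (n = 3) and groups in the order DO2, DO4, DO8 for each model. Every DO8 point lies above every low-oxygen point of its model; evm.model.scaffold731.16 spreads from 0.93 to 198 CPM within the low-oxygen libraries.

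CPM do not account for model length, so levels of different models were compared as FPKM, the authors' values per length and sequencing depth, which carry no TMM correction. By mean FPKM in DO8 the leading member was evm.model.scaffold1505.14, a model of only 294 bases, with 720, 344 and 230 FPKM in DO2, 171, 961 and 144 FPKM in DO4, and 2676, 4022 and 3504 FPKM in DO8. Next came evm.model.scaffold2915.1, with a mean of 115 FPKM in DO2, 371 FPKM in DO4 and 1195 ± 590 FPKM in DO8 (SD, n = 3). Evm.model.scaffold891.7, at 210 bases the shortest member, had 198, 296 and 104 FPKM in DO2, 268, 442 and 158 FPKM in DO4, and 816, 590 and 862 FPKM in DO8. The DO8 libraries of evm.model.scaffold2915.1 and evm.model.scaffold891.7 overlapped, so their order is not resolved. The same holds for evm.model.scaffold412.11 (478 ± 89.1 FPKM in DO8; SD, n = 3) and evm.model.scaffold357.43 (454 ± 144 FPKM), which follow.

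The largest fold differences belonged to members with few counts at low oxygen. Evm.model.scaffold1399.4 had 0, 0.4 and 0 CPM in DO2, 0.85, 1.91 and 0.47 CPM in DO4, and 14.9, 105 and 8.39 CPM in DO8. With 1 count in all DO2 libraries together and 468 in DO8, the summed DO2 level was 351-fold lower (95% interval from counting error alone, 62.7 to 13900), and the single high library of the control, DO8 library 2, held 81.9% of its DO8 level. Against the 6 low-oxygen libraries together it lay 70.9-fold lower with all libraries, 19.3-fold lower without DO8 library 2 and 125-fold lower without DO4 library 2. Evm.model.scaffold942.9 had 2.51, 4.36 and 6.07 CPM in DO2, 5.96, 4.13 and 7.01 CPM in DO4, and 308, 39.5 and 19.9 CPM in DO8. Its low-oxygen libraries were close together, and its 24.4-fold difference became 5.93-fold without DO8 library 1.

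In others of this set the lowest control also lay well above every low-oxygen library. Evm.model.scaffold560.11 had 0.31, 1.58 and 3.04 CPM in DO2, 0, 0 and 1.87 CPM in DO4, and 13.3, 18.7 and 16.4 CPM in DO8, with the lowest control 4.37 times the highest low-oxygen library. The widest such gap, 4.81 times, was that of evm.model.scaffold2024.3, with 1.88, 0 and 1.52 CPM in DO2, 5.96, 0 and 0 CPM in DO4, and 101, 28.7 and 30.4 CPM in DO8. Its 34.3-fold difference was 18.9-fold without DO8 library 1 and 78.6-fold without DO4 library 1.

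Others kept a single higher library at low oxygen. Evm.model.scaffold605.8 had 7.84, 0 and 0 CPM in DO2, 0, 0.95 and 1.64 CPM in DO4, and 42.2, 16.8 and 52.4 CPM in DO8, and its 21.4-fold difference became 71.7-fold without DO2 library 1. In evm.model.scaffold171.3 the values were 21.0, 1.19 and 8.09 CPM in DO2, 0, 0 and 4.91 CPM in DO4, and 89.3, 34.9 and 137 CPM in DO8, a 14.9-fold difference that was 30.7-fold without DO2 library 1. Evm.model.scaffold761.20 had 0.31, 0.79 and 8.09 CPM in DO2, 2.55, 2.54 and 0 CPM in DO4, and 25.2, 65.4 and 17.8 CPM in DO8, 15.2-fold apart and 29.1-fold without DO2 library 3. The other members of the set, evm.model.scaffold209.5, evm.model.scaffold1290.1 and evm.model.scaffold2373.1, are taken up with the models they resembled.

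**Figure D3:**
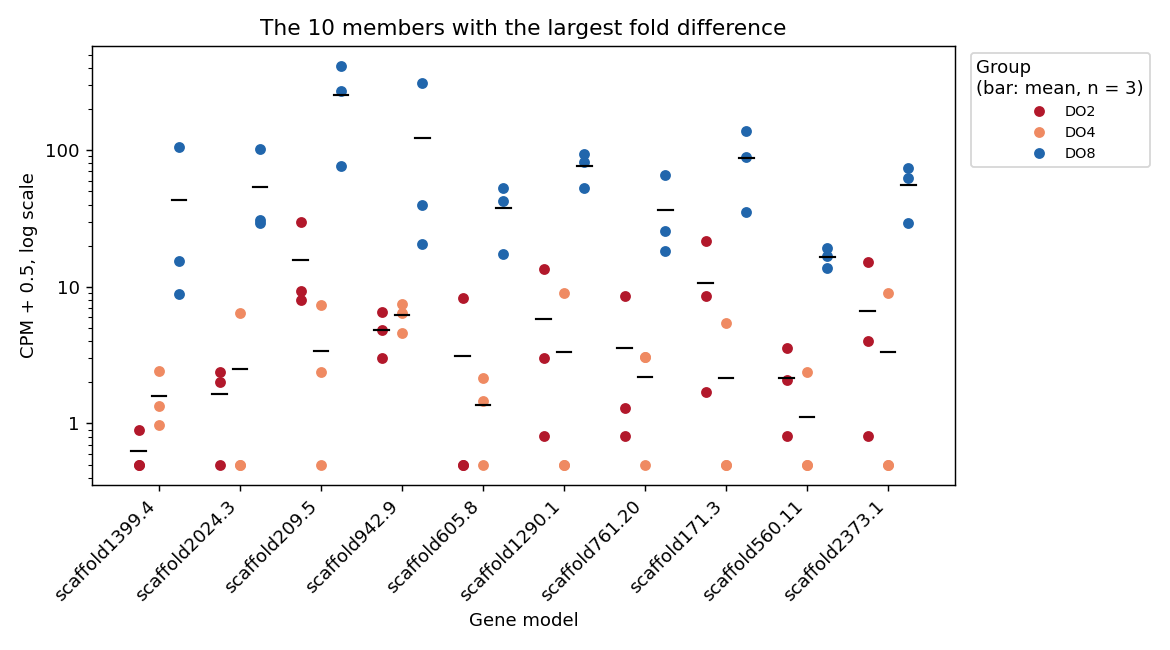
CPM + 0.5 (log scale) of the 10 members with the largest ratio of the DO8 mean to the mean of the 6 low-oxygen libraries, with 1 point per library, a bar for the group mean (n = 3) and groups in the order DO2, DO4, DO8. Points at 0.5 are libraries with a count of 0; for evm.model.scaffold942.9 and evm.model.scaffold1399.4 a single DO8 library lies far above the other two.

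Among all 164 members, 1 DO8 library held over 50% of the summed DO8 level in 39 members (23.8%, against 24.8% of the level set). It was DO8 library 3 for 19 of them, DO8 library 2 for 14 and DO8 library 1 for 6. Leaving out a single library moved the low-oxygen difference by over 1.5 times for 35 members and brought it below 2-fold for 20. At the other end, 14 members had DO8 libraries within 1.2-fold of each other. Of these, evm.model.scaffold274.2 had 45.8, 39.2 and 36.4 CPM in DO2, 25.5, 45.8 and 29.2 CPM in DO4, and 78.5, 85.7 and 86.4 CPM in DO8. Evm.model.scaffold549.11 had 4.39, 3.17 and 3.54 CPM in DO2, 4.25, 4.77 and 3.04 CPM in DO4, and 8.39, 7.84 and 8.74 CPM in DO8. Both were picked after their values were seen, as members whose libraries were alike within each group.

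Libraries at low oxygen were less alike than controls for the members. The median SD of log2 CPM was 0.76 in DO2, 0.75 in DO4 and 0.43 in DO8, against 0.61, 0.70 and 0.42 in the level set (n = 3 libraries each). The 6 low-oxygen libraries stayed within 2-fold of each other for 9 members (5.49%, against 11% of the level set). They spanned 10-fold or more, or included a 0, for 49 members (29.9%, against 21.2%). The lower counts of the members at low oxygen move with this spread, and their part in it was not tested.

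Whether the 2 low oxygen levels differed from each other is a comparison that the rule did not make. It did hold all 6 DO2 and DO4 libraries below the lowest DO8 library, so the members' values in this comparison were still limited by the rule. In edgeR's quasi-likelihood test of DO2 against DO4 none of the members passed an adjusted p of 0.05, and none of the models tested did (0% called). The lowest adjusted p was 0.632. At an unadjusted p under 0.05 there were 8 members (4.88%, against 4.91% of all models tested), 7 higher and 1 lower in DO2. The background shares were 2.94% higher and 1.97% lower. The split moved with the processing, with 6 higher and 3 lower by upper-quartile factors, 5 and 4 without the filter on low counts, and 5 and 7 by limma on log2(FPKM + 1). Over all models tested, in either direction, these settings gave 664 of 13933, 1178 of 27060 and 544 of 13933. DESeq2 called 2 members after adjustment, and 28 models in all; without DO2 library 3 it called 1 member and 27 models.

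The 2 members called by DESeq2 were evm.model.scaffold209.3 and evm.model.scaffold317.7, both higher in DO2. Evm.model.scaffold209.3 had 42.7, 55.9 and 167 CPM in DO2 and 5.96, 6.04 and 9.34 CPM in DO4, with 274, 197 and 287 CPM in DO8. Its fitted log2 fold change of DO2 over DO4 was 3.61 ± 0.58 (SE), with an adjusted p of 0.632 by edgeR and 2.2e-05 by DESeq2. Evm.model.scaffold317.7 had 60.8, 25.4 and 155 CPM in DO2 and 11.1, 6.67 and 15.4 CPM in DO4, with 388, 390 and 516 CPM in DO8, and a log2 fold change of 2.85 ± 0.64 with an adjusted p of 0.971 by edgeR and 0.016 by DESeq2. In both, the 3 groups were ordered DO4, DO2, DO8 with no overlap, and DO2 library 3 was the highest of the low-oxygen libraries. Without that library the log2 fold change of evm.model.scaffold209.3 was 2.77 by edgeR (adjusted p 0.593) and 2.73 by DESeq2 (adjusted p 2.2e-05). That of evm.model.scaffold317.7 was then 1.96 by edgeR (adjusted p 0.94) and 1.94 by DESeq2 (adjusted p 0.151), so its DESeq2 call was lost. DESeq2 without DO2 library 3 was run after the data were seen.

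Evm.model.scaffold209.5, on the same scaffold as evm.model.scaffold209.3, had the same order of groups. It had 8.78, 7.53 and 29.3 CPM in DO2, 6.81, 0 and 1.87 CPM in DO4, and 76.6, 271 and 414 CPM in DO8. The DO2 mean was 16.7-fold and the DO4 mean 87.7-fold below DO8. Its 28-fold difference between all low-oxygen libraries and DO8 was 50.7-fold without DO2 library 3 and 19.2-fold without DO8 library 3. The log2 fold change of DO2 over DO4 was 2.64 ± 1.13, at an unadjusted p of 0.0425 in edgeR and an adjusted p of 0.971. None of the nonzero expected counts of these 3 models was a whole number, so their reads were in part divided among models and the level of each alone is uncertain.

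Of the less abundant members higher in DO2, evm.model.scaffold1344.8 had 5.96, 5.94 and 2.02 CPM in DO2, 0, 0.64 and 0 CPM in DO4, and 11.4, 16.2 and 7.69 CPM in DO8. It had 2 counts in all DO4 libraries and 124 in DO8, which puts the summed DO4 level 52-fold lower (95% interval from counting error alone, 14.1 to 434). Evm.model.scaffold211.23 had 7.21, 6.34 and 4.55 CPM in DO2, 4.25, 2.54 and 1.4 CPM in DO4, and 18.1, 21.1 and 18.2 CPM in DO8, a 2.21-fold ratio of DO2 to DO4. Here the groups followed one another without overlap, and the controls were within 1.2-fold of each other. By edgeR, DO2 against DO4 had an unadjusted p of 0.00231 for evm.model.scaffold1344.8 and 0.0349 for evm.model.scaffold211.23. The adjusted p by edgeR was 0.971 for both.

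Among members lower in DO2, 1 of the 5 with the smallest p was under an unadjusted p of 0.05 by edgeR. Evm.model.scaffold853.29 had 2.2, 1.98 and 2.02 CPM in DO2, 5.96, 7.63 and 3.97 CPM in DO4, and 9.47, 7.84 and 18.2 CPM in DO8, with a log2 fold change of -1.47 ± 0.55 and adjusted p of 0.971 by edgeR. Its DO2 libraries were nearly equal, but held 16 counts in all. Evm.model.scaffold125.4 had 15.4, 38.8 and 10.1 CPM in DO2, 68.1, 42.6 and 31.5 CPM in DO4, and 264, 272 and 189 CPM in DO8, where 1 DO2 library overlapped the DO4 range. Evm.model.scaffold519.33 had 2.51, 0 and 0.51 CPM in DO2, 15.3, 3.5 and 1.87 CPM in DO4, and 41.7, 18.7 and 70.6 CPM in DO8, and here too 1 DO2 library overlapped DO4.

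In the same direction, evm.model.scaffold1026.6 had 2.51, 1.98 and 0 CPM in DO2, 6.81, 1.27 and 11.0 CPM in DO4, and 13.0, 15.4 and 22.0 CPM in DO8, so that DO2 and DO4 overlapped. Add.evm.model.scaffold566.11 had 4.7, 4.36 and 4.05 CPM in DO2, 8.51, 4.77 and 13.3 CPM in DO4, and 17.9, 32.2 and 14.0 CPM in DO8, with all DO2 libraries just below the lowest DO4 library. EdgeR's adjusted p was 0.971 for each of these 5 members.

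Over all members, the DO2 mean was above the DO4 mean in 97 and below it in 67, that is above in 59.1% against 48.4% of all models tested. The median fitted log2 ratio of DO2 to DO4 was 0.13 for the members and -0.03 for all models. On log2(FPKM + 1), which carries no correction for composition, these medians were -0.2 and -0.33. The 2 means lay within 2-fold of each other for 127 members (77.4%, against 83.4% of the level set). DO2 was at least 2-fold above DO4 for 25 (15.2%, against 8.9%) and DO4 at least 2-fold above DO2 for 12 (7.32%, against 7.73%). The DO2 and DO4 libraries did not overlap for 18 members (11%, against 7.74% of all models tested), 12 with DO2 higher (7.32%, against 4.26%) and 6 with DO2 lower (3.66%, against 3.48%). The part of the rule's limit on the DO2 and DO4 levels in these shares was not tested.

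**Figure D4:**
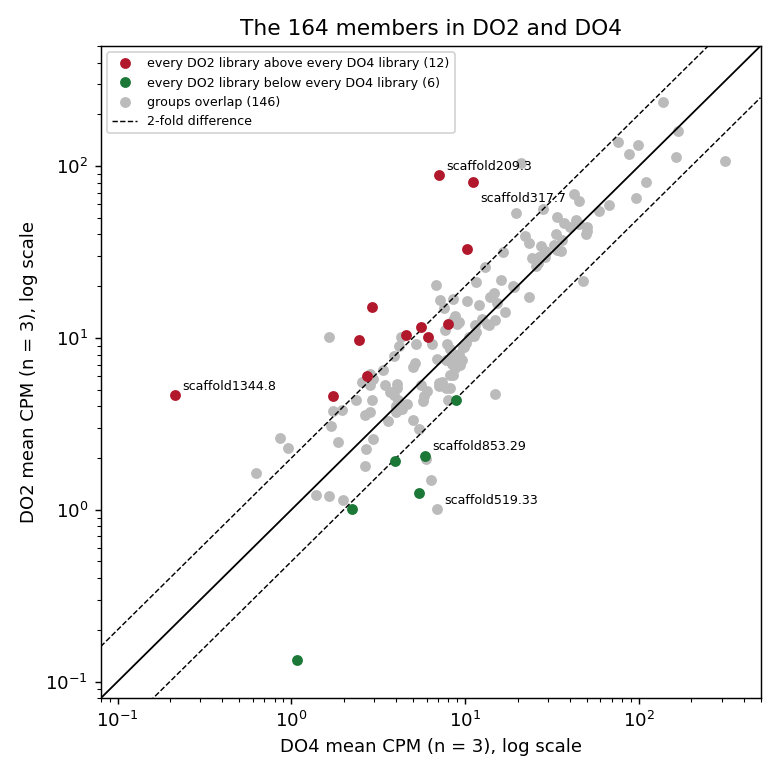
DO2 mean CPM (vertical axis, log scale) against DO4 mean CPM (horizontal axis, log scale) of the 164 members (n = 3 libraries per mean), with the line of equal levels and dashed lines at a 2-fold difference. Red points are the 12 members whose DO2 libraries all lie above their DO4 libraries, green points the 6 with all below, and grey points the 146 that overlap; evm.model.scaffold209.3 and evm.model.scaffold317.7 lie far above the upper dashed line.

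In the contrasts that the rule used, edgeR called none of the members after adjustment in DO2 against DO8 or in DO4 against DO8 (0% of all models called in each). The lowest adjusted p was 0.322 for DO2 and 0.133 for DO4. At an unadjusted p under 0.05, 128 members were lower in DO2, where 3.24% of all models were, and 134 were lower in DO4, where 4.72% were. These counts follow from how the members were chosen.

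The identifiers show which members carry consecutive numbers on a scaffold, and the rule did not use them. The 164 members came from 144 scaffolds, and 17 scaffolds held more than 1. Consecutive numbers on a scaffold occurred in 8 pairs, 16 of the 164 members. That count depended on the processing, which also changed how many models the rule took. There were 6 such models of 140 with upper-quartile factors, 2 of 71 with a limit of 3-fold and 26 of 301 on deposited FPKM. With the rule as given, of the 61 members whose next-numbered model was in the level set, 8 (13.1%) were followed by another member, whereas 1.25% of all 4171 such models in the level set were followed by a member. Whether consecutive numbers are neighbours along the scaffold is not stated in the tables. Consecutive models can share reads, and in 4 of the pairs few or none of the expected counts were whole numbers.

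Scaffold 412 held 3 members. Evm.model.scaffold412.11 had 270, 294 and 143 CPM in DO2, 227, 87.1 and 96.9 CPM in DO4, and 411, 526 and 506 CPM in DO8. The next-numbered evm.model.scaffold412.12 had 48.6, 29.3 and 16.7 CPM in DO2, 17.9, 13.0 and 18.9 CPM in DO4, and 80.3, 79.5 and 75.9 CPM in DO8. The controls of the second differed by less than 1.2-fold. Evm.model.scaffold412.14 had 48.9, 10.7 and 18.2 CPM in DO2, 9.36, 17.5 and 12.2 CPM in DO4, and 56.3, 84.6 and 52.1 CPM in DO8. For the pair, the log2 ratio between the models had an SD of 0.51 over the 6 low-oxygen libraries, against a median of 1.27 over all 13366 pairs of members, while 5.6% of its expected counts were whole numbers.

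On scaffold 295, evm.model.scaffold295.22, at 5469 bases the longest member, had 58.0, 69.0 and 79.9 CPM in DO2, 36.6, 64.2 and 26.6 CPM in DO4, and 206, 167 and 219 CPM in DO8. Its neighbour in number, evm.model.scaffold295.23, had 38.6, 19.8 and 41.0 CPM in DO2, 2.55, 15.9 and 12.4 CPM in DO4, and 161, 266 and 64 CPM in DO8. The second differed from the first in DO4 library 1 and in the control, and the log2 ratio between them had an SD of 1.09 over the low-oxygen libraries. All DO2 libraries of evm.model.scaffold295.23 lay above its DO4 libraries, with an unadjusted p of 0.0363 and an adjusted p of 0.971 by edgeR. The third member there, add.evm.model.scaffold295.2, belongs to another numbering and had 43.9, 15.1 and 38.5 CPM in DO2, 24.7, 46.4 and 30.6 CPM in DO4, and 64.9, 83.0 and 65.4 CPM in DO8.

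Evm.model.scaffold2575.3 and evm.model.scaffold2575.4 were the steadiest pair at low oxygen by the first model, which had 27.9, 31.7 and 30.9 CPM in DO2, 22.1, 26.4 and 33.4 CPM in DO4, and 75.5, 112 and 59.1 CPM in DO8. The second had 12.2, 4.36 and 11.1 CPM in DO2, 6.81, 8.58 and 8.18 CPM in DO4, and 14.1, 31.6 and 27.6 CPM in DO8. The 6 low-oxygen libraries of the first spanned 1.51-fold, the narrowest range of any member. Evm.model.scaffold477.22 had 33.6, 7.53 and 18.2 CPM in DO2, 43.4, 9.53 and 4.67 CPM in DO4, and 45.2, 81.1 and 44.4 CPM in DO8, and evm.model.scaffold477.23 had 17.9, 4.75 and 24.3 CPM in DO2, 5.96, 26.7 and 3.5 CPM in DO4, and 30.6, 43.0 and 27.3 CPM in DO8. The log2 ratio between them had an SD of 1.41 over the low-oxygen libraries, the only one of the 8 pairs above the median of 1.27 over all pairs of members. That pair had no whole-number count, and in both models the lowest control was 1.02 times the highest low-oxygen library.

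Pairs whose counts were all whole numbers leave no sign of divided reads. Evm.model.scaffold340.19 had 24.8, 16.6 and 18.7 CPM in DO2, 23.8, 9.53 and 23.4 CPM in DO4, and 72.2, 36.5 and 27.3 CPM in DO8, where DO8 library 1 stood out. Evm.model.scaffold340.20 had 12.9, 13.5 and 21.8 CPM in DO2, 18.7, 17.5 and 9.34 CPM in DO4, and 69.0, 74.6 and 43.7 CPM in DO8, 2-fold clear of every low-oxygen library. In evm.model.scaffold190.5 the values were 8.15, 4.75 and 2.53 CPM in DO2, 5.11, 7.63 and 11.7 CPM in DO4, and 19.2, 11.9 and 49.7 CPM in DO8, and in evm.model.scaffold190.6 they were 26.0, 33.3 and 19.2 CPM in DO2, 26.4, 20.3 and 29.4 CPM in DO4, and 35.4, 36.2 and 138 CPM in DO8. Both were highest in DO8 library 3, without which evm.model.scaffold190.6 was 1.39-fold below the control in place of 2.71-fold. The remaining pairs, evm.model.scaffold483.2 with evm.model.scaffold483.3 and evm.model.scaffold1006.9 with evm.model.scaffold1006.10, also had whole-number counts throughout, with SDs of the log2 ratio over the low-oxygen libraries of 0.87 and 0.41.

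**Figure D5:**
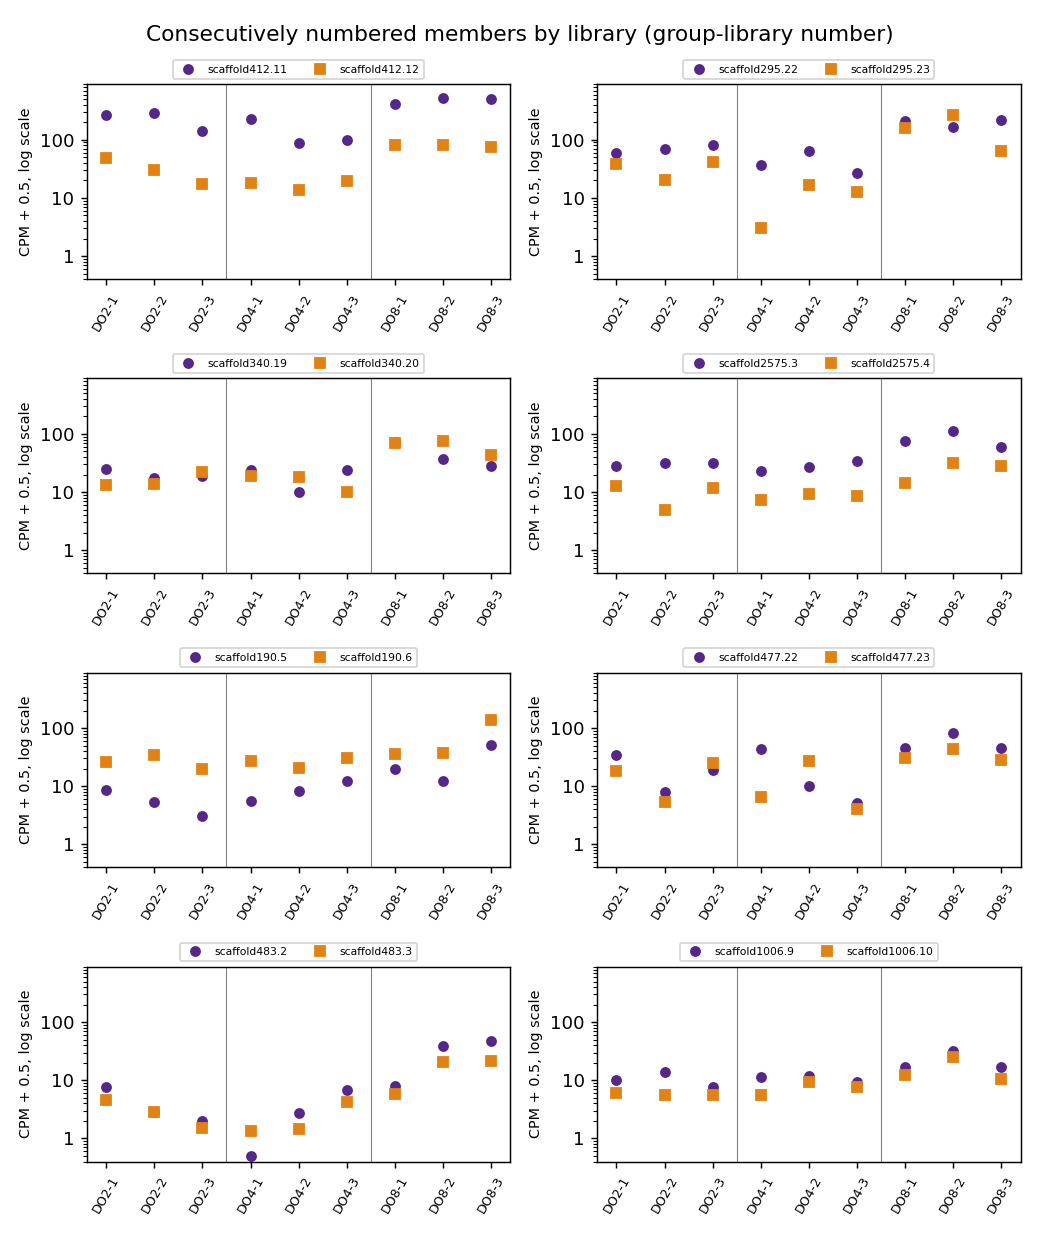
CPM + 0.5 (log scale) in each library of the 8 pairs of consecutively numbered members, 1 panel per pair, with circles for the lower and squares for the higher number, in the order DO2, DO4, DO8. The 2 models of evm.model.scaffold1006.9 and evm.model.scaffold1006.10 keep the most even ratio (SD of the log2 ratio over 9 libraries 0.35), and those of scaffold 295 the least even (1.21).

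Evm.model.scaffold1290.1 and evm.model.scaffold2373.1, on different scaffolds, were picked after the values were seen as the closest pair among members that ranged over at least 3 log2 units at low oxygen. The first had 0.31, 13.1 and 2.53 CPM in DO2, 8.51, 0 and 0 CPM in DO4, and 93.1, 52.2 and 81.8 CPM in DO8. The second had 0.31, 14.7 and 3.54 CPM in DO2, 8.51, 0 and 0 CPM in DO4, and 73.9, 28.9 and 62.6 CPM in DO8. Both were highest in DO2 library 2 among the low-oxygen libraries, and both were at or under the limit that a count of 0 allows in DO2 library 1 and DO4 libraries 2 and 3, which say nothing of their ratio. Only 14.3% of the nonzero expected counts of each were whole numbers, and whether they share reads with each other was not tested. Without DO2 library 2 their differences of 18.6-fold and 12.2-fold from DO8 became 33.3-fold and 22.3-fold.

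In length the members were like the level set, with a median of 1096.5 bases against 1068 and a range of 210 to 5469. Models under 500 bases made up 9.15% against 10.9%. Of the members, 159 carried the identifier form evm.model, 2 add.evm.model and 3 an exonerate form, that is 97%, 1.22% and 1.83% against 95.5%, 2.36% and 2.13%. Expected counts were whole numbers for 42.5% of the members' nonzero values and 49.6% of those of the level set. All values were whole for 60 members and none for 64.

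The fold condition had no natural break at its limit. The 3 members just inside it were evm.model.scaffold409.18, evm.model.scaffold449.3 and evm.model.scaffold42.13, whose DO2 means were 0.498, 0.497 and 0.496 of the DO8 mean. The 3 models just outside, with all other conditions met, were evm.model.scaffold670.14, evm.model.scaffold359.16 and evm.model.scaffold534.4, with ratios of 0.5002, 0.5004 and 0.502. The second of these had a DO4 mean of 3.31 CPM, far below its DO8 mean of 33.5 CPM, and was left out by its DO2 mean of 16.8 CPM. The condition of no overlap was as narrow for many, with the lowest control less than 1.1 times the highest low-oxygen library for 29 members, at least 1.5 times for 55 and at least 2 times for 26. On its own, that condition was met by 2.91% of the models tested.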

How the data were processed

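The deposited tables, 1 per library, hold for each model its length, expected count and FPKM, per the file headers. These expected counts were estimated by the authors and are not normalized, and FPKM was also computed by the authors. The submitters' processing notes name CASAVA 1.5; which aligner, counter, build and annotation were used is not given in the sources used here. Of all model lengths 93.5% were multiples of 3, so they are mostly coding lengths.

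Expected counts were rounded to whole numbers, with unlisted models as 0, filtered with filterByExpr by group (98.9% of the counts kept) and scaled with TMM factors. DO2 was tested against DO4 with edgeR 4.0.16 in R 4.3.3 (glmQLFit, robust, 1 coefficient per group, all 9 libraries), with Benjamini-Hochberg adjustment over the 13933 models and a threshold of 0.05. Each standard error is the absolute log2 fold change over the square root of F. Floors are 3 counts per library; a whole number has no decimal part. The highest r of log2 CPM between libraries was 0.835, so none was treated as a repeat of another.

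The members and lists were chosen with earlier results of these data known. Named members were the 10 highest in DO8 by CPM and the 5 highest by FPKM, the 10 with the largest ratio to low oxygen, the 5 with the smallest p between DO2 and DO4 in each direction, the 6 leading runs of consecutive numbers, and the models at the fold limit; others are said to be chosen after their values were seen or complete a scaffold or pair. Alternatives were DESeq2 1.42.0, limma 3.58.1, other factors, filters and limits, a replicate block, and leaving out libraries.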

Additional observations from a re-analysis of the deposited data

How the results depend on the processing

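The rule took 156 models with DESeq2 size factors and 140 with upper-quartile factors, all of them among the 164 members, and 185 without the filter on low counts. It took 301 on deposited FPKM (151 of the 164 among them), 71 with a limit of 3-fold, 123 with a mean of at least 10 CPM, and 321 without DO2 library 3 and DO4 library 1 together (137 of the 164). Leaving out each library gave 165 to 281, the highest without DO8 library 1 (144 of the 164 members) and 264 without DO8 library 3 (133). Members with a consecutively numbered member came to 6 with upper-quartile factors, 26 on FPKM, 2 with the limit of 3-fold, 28 without DO2 library 3 and DO4 library 1, and 14 to 29 leaving out each library (25 without DO8 library 1, 29 without DO8 library 2).

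Between DO2 and DO4, DESeq2 called 2 members, and 1 without DO2 library 3 (an alternative chosen after seeing the data); the other 18 alternatives called none. At an unadjusted p under 0.05, DESeq2 had 13 members, limma on log2(FPKM + 0.1) 13, edgeR on the DO2 and DO4 libraries alone 4, and edgeR without DO2 library 3 and DO4 library 1 had 16. Leaving out each library gave 5 to 20 members (15 without DO2 library 1, 17 without DO4 library 1, 20 without DO4 library 2 and 5 without DO8 library 2). Without DO2 library 1, DO4 library 1, DO4 library 2 and DO8 library 2 in turn, all models tested gave 742 of 14815, 1165 of 15220, 672 of 14817 and 655 of 14670. The median log2 ratio of DO2 to DO4 was -0.2 on log2(FPKM + 1), with and without the filter, and -0.23 on log2(FPKM + 0.1), against 0.13; leaving out each library gave 0.03 to 0.27. The cause of these changes was not tested. With the replicate number as a block there were 0 calls. At an unadjusted p under 0.05 that fit had 8 members, and 441 of all 13933 models tested. Same-numbered libraries did not deviate together (r of -0.169 to 0.068 over 9 pairs of libraries), so the numbers were not taken to pair them. Of the values of the 10 members named for DO2 against DO4, 193 kept direction and side of the threshold and 3, by DESeq2, came past it.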
